A study of Mus musculus with 12 samples.

Results

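The adult hemoglobin genes Hba-a1, Hba-a2, Hbb-bs and Hbb-bt, together with Alas2, were examined mouse by mouse in RNA-Seq of the hippocampus. These 5 genes, with 12 annotated transcripts, were taken from 35580 genes and 115270 transcripts. They were chosen from these same values, because their summed levels were higher in exposed mice than in control mice. The rise over control is therefore described below without a test, and tests are kept for comparisons that played no role in the choice. The libraries came from male C57BL/6 mice (C57BL/6J in the methods of the study) at postnatal day 70, with 3 mice in each of 4 groups. Dams of ethanol and of ethanol + stress mice could drink 10% ethanol in water by choice. The labels give this exposure as gestational, and by the methods of the study the ethanol stayed on offer to postnatal day 10 and had also been on offer before mating, so that it overlapped the days of separation. Dams of control and of stress mice had water only. Stress and ethanol + stress pups were isolated from dam and littermates for 3 hours per day from postnatal day 2 to 14, and control and ethanol pups stayed with the dam. Ethanol intake was thus set by each dam. By the methods of the study each litter was divided at random between separation and no separation, so that mice of 2 groups may share a litter, and which of these 12 mice did is not given in the sources used here, so the p-values below measure the spread between these mice only. Mice were killed with carbon dioxide followed by cervical dislocation, and no step that clears blood from the brain is described in the sources used here.

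Hemoglobin carries oxygen in red blood cells and is built from alpha globin and beta globin chains that each hold a heme group. In the adult mouse the alpha chains come from Hba-a1 and Hba-a2, neighboring genes on chromosome 11, and in C57BL/6 mice the beta chains come from Hbb-bs and Hbb-bt on chromosome 7. Alas2, on the X chromosome, encodes the erythroid form of 5-aminolevulinate synthase, which carries out the first step of heme synthesis, while Alas1 encodes the form used by other cells. Red cell precursors make these transcripts in bulk, reticulocytes that enter the blood still hold some of them, and globin transcripts have also been described in neurons. In a piece of bulk tissue, more cells of a type and more RNA per cell cannot be told apart.

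The promoters are shown because the 4 globin genes moved together among exposed mice, with that of Alas2 for comparison, and because the alpha pair could not be separated by sequence. The 250 bases before the RefSeq start of each gene (GRCm38.p6, 5′ to 3′ on the strand of the gene) were searched on both strands for 4 short motifs: CACCC, the letters known to bind erythroid Krüppel-like factors, then GATAA for the factors of the GATA family, then CCAAT for its own set of binding factors, and lastly TATAA for the protein that places the start of transcription. Capitals mark every match on either strand, and matches may adjoin or overlap. GENCODE models of Hba-a1, Hba-a2, Hbb-bt and Alas2 begin upstream of the RefSeq start, by unequal distances, and so within the window, as does a minor transcript of Hbb-bs. Some matches near the RefSeq start therefore lie within the span of these models, such as CCAAT and TATAA of Hba-a1 and the CACCC matches of Alas2. The windows lie at chr11:32296242-32296491 (plus strand), chr7:103827929-103828178 (minus), chr7:103813924-103814173 (minus) and chrX:150547167-150547416 (plus), in the order printed.
Hba-a2: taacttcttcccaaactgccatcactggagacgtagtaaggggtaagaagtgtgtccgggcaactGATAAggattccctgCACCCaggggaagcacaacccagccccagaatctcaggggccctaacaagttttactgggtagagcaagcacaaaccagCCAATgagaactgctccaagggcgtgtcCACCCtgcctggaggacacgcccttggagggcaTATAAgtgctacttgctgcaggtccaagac
Hbb-bs: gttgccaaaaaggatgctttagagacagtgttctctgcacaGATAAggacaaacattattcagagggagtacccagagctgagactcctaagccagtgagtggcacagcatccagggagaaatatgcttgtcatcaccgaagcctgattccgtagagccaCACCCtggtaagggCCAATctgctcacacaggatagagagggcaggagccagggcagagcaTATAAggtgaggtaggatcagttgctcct
Hbb-bt: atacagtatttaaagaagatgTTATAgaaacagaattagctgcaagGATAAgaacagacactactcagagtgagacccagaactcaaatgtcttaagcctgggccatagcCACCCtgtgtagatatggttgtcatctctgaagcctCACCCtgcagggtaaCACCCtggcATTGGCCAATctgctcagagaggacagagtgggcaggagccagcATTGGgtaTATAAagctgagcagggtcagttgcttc
Alas2: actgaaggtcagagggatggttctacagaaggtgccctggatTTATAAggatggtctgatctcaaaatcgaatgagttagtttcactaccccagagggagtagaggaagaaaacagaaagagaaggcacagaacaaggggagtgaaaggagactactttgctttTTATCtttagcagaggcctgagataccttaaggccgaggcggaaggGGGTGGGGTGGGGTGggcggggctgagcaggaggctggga
The window of Hba-a1 (chr11:32283422-32283671, plus strand) shares a run of 247 identical bases with that of Hba-a2 and is not printed. GATAA was found in all 5 windows, as were the letters CACCC, whereas the window of Alas2 alone lacked CCAAT. On the strand of the gene, TATAA lay 27 to 30 bases before the start in each globin window but 207 bases before it in Alas2. Of 32817 promoter windows of the same length, 52% had a match to the CACCC letters, 22.6% to those of the GATA family, 33.8% to the CCAAT letters and 22.8% to those of the TATA box. A match is a description of the letters and does not show that a factor was bound.

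Near-identical transcripts also set a limit on the measurement. The coding parts of Hba-a1 and Hba-a2 (429 bases) and those of Hbb-bs and Hbb-bt (444 bases) each differed at 1 base. Of the 31-base words that kallisto matches, Hba-a1 shared 477 with Hba-a2, which is 71.3% of its own words and 91% of those of Hba-a2. Hbb-bs shared 400 words with Hbb-bt, 66.9% of its own and 59.4% of those of Hbb-bt. No word was shared between Hba-a1 and Hbb-bs. The division of reads within the alpha pair and within the beta pair was therefore an estimate, and the alpha and beta sums are the steadier values.

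Levels are in TPM, a measure of transcript abundance corrected for length that the authors scaled between libraries, so that a library summed to 889222 to 1173650 rather than to a fixed total. The depth recovered from the low values was 12050000 to 14930000 read pairs per library. Of the 10 hippocampal neuron genes listed, each was at 5.98 TPM or more in every library, among them Prox1 of dentate granule cells at 12.7 to 20.9 TPM and Fibcd1 of CA1 neurons at 33.8 to 62.5 TPM, while the synaptic gene Snap25, at 1388 to 1705 TPM, is shared by neurons throughout the brain. Libraries also differed within groups. Choroid plexus genes ranged widely within groups, with Ttr (transthyretin) at 30.0 to 7089 TPM. Genes shorter than 1000 bases, a class that holds all 4 globin genes, were shifted in ethanol 2, ethanol + stress 2 and ethanol + stress 3, the mice that also had the highest mitochondrial shares and library sums, as described with the globin sum below.

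Alpha globin transcripts were more abundant in each exposed mouse than in any control mouse. Hba-a1 stood at 355, 252 and 274 TPM in control mice, at 590, 1083 and 553 TPM in ethanol mice, at 564, 477 and 446 TPM in stress mice and at 425, 958 and 575 TPM in ethanol + stress mice. Hba-a2 stood at 528, 442 and 483 TPM in control mice, at 948, 1751 and 897 TPM in ethanol mice, at 879, 703 and 747 TPM in stress mice and at 660, 1591 and 1011 TPM in ethanol + stress mice. In both genes control 2 was the lowest mouse, ethanol + stress 1 the lowest exposed mouse, and ethanol 2 and ethanol + stress 2 the highest mice. Mean Hba-a1 was 294 TPM ± 54.2 (SD, n = 3) in control mice, and the group means were 2.53-fold that level for ethanol, 1.69-fold for stress and 2.22-fold for ethanol + stress. For Hba-a2 the control mean was 484 TPM ± 43.3 (SD, n = 3), with ratios of 2.48, 1.60 and 2.25 in the same order.

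The beta globin genes showed the same pattern at a different level. Hbb-bs, the most abundant of the 5 genes, stood at 1009, 804 and 863 TPM in control mice, at 1713, 3561 and 1502 TPM in ethanol mice, at 1738, 1246 and 1449 TPM in stress mice and at 1192, 3487 and 2130 TPM in ethanol + stress mice. Hbb-bt, the minor beta gene, stood at 122, 99.1 and 111 TPM in control mice, at 209, 398 and 180 TPM in ethanol mice, at 201, 154 and 160 TPM in stress mice and at 167, 426 and 248 TPM in ethanol + stress mice. Again no exposed mouse overlapped with a control mouse, and ethanol 2 and ethanol + stress 2 were far above the other mice. The control mean of Hbb-bs was 892 TPM ± 106 (SD, n = 3), with group means 2.53-fold, 1.66-fold and 2.54-fold as high for ethanol, stress and ethanol + stress. The control mean of Hbb-bt was 111 TPM ± 11.7 (SD, n = 3), with ratios of 2.36, 1.55 and 2.53.

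Alas2 averaged 12.1 TPM over the 12 mice, 143-fold less than Hbb-bs, but here too each exposed mouse lay above each control mouse. It stood at 7.16, 5.90 and 8.15 TPM in control mice, at 12.5, 21.4 and 13.9 TPM in ethanol mice, at 10.9, 13.4 and 11 TPM in stress mice and at 10.0, 17.6 and 12.9 TPM in ethanol + stress mice. The control mean was 7.07 TPM ± 1.13 (SD, n = 3), and the group means were 2.26-fold, 1.66-fold and 1.91-fold as high. Alas2 rested on 64.5 to 284 read pairs per library, against 2565 to 13204 for Hbb-bs, so that counting error alone reached 12.4% of the value in the library with the lowest count.

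**Figure D1:**
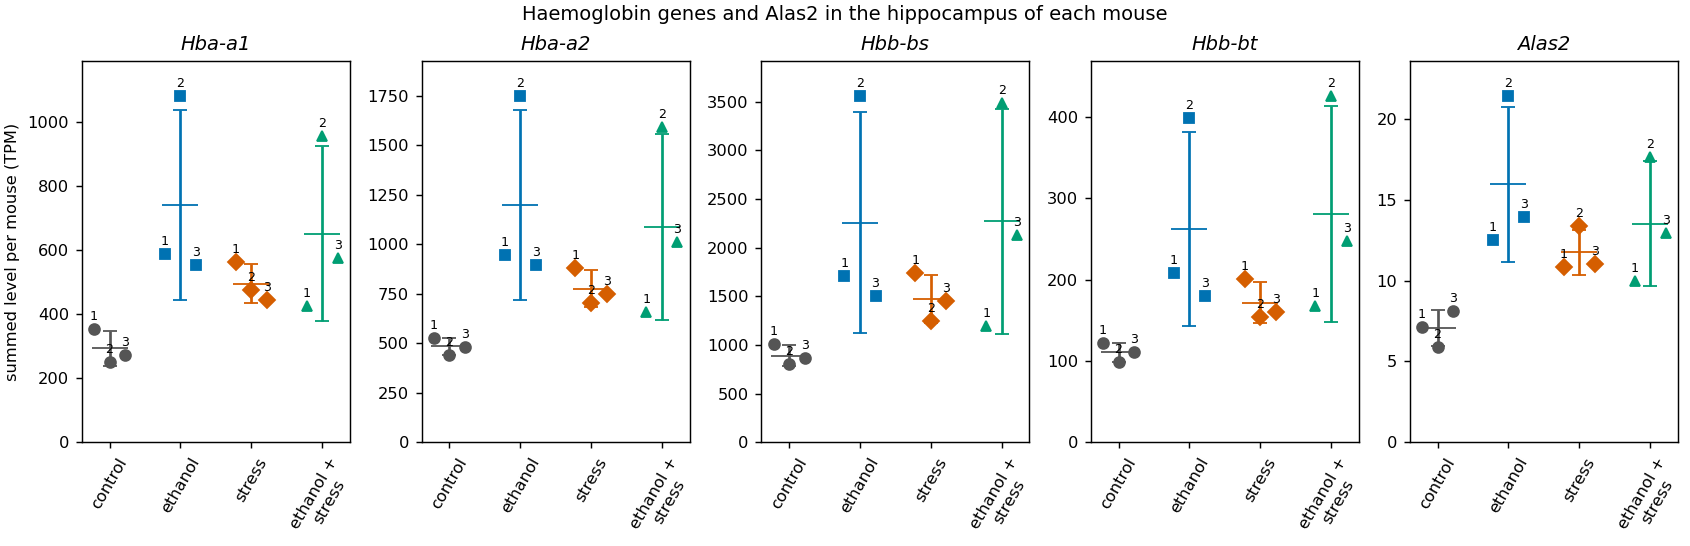
Summed level in TPM of each of the 5 genes (one panel per gene, linear axes from 0) in each of 12 mice, by group; the digit is the number of the mouse within its group, the horizontal line the group mean and the bar 1 SD. In each panel all 9 exposed mice lie above the 3 control mice, and ethanol 2 and ethanol + stress 2 are the 2 highest mice.

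On the log2(TPM + 0.5) scale used for all genes, the mean of the 3 exposed groups exceeded control by 1.04 (SE 0.24) for Hba-a1, 1.0 (SE 0.25) for Hba-a2, 1.06 (SE 0.31) for Hbb-bs, 1.0 (SE 0.27) for Hbb-bt and 0.88 (SE 0.19) for Alas2. The median difference of all 18434 genes tested was 0.02. Since the genes were chosen on this difference, it carries no test. As background, an unadjusted p under 0.01 in limma called 0.472% of all genes higher and 0.179% lower in exposed mice, 0.391% of all genes had each of the 9 exposed mice above each of the 3 control mice, and 628 of 18434 genes had an unadjusted p under 0.05, the count beside which those of the gene lists below stand. The gap was modest in size, the lowest exposed mouse being 1.18-fold (Hbb-bs) to 1.26-fold (Hbb-bt) above the highest control mouse. It held for all 5 genes when TPM were rescaled to a common total, when median-of-ratios size factors were used, and when the trend of each library over transcript length was removed. Without ethanol 2 and ethanol + stress 2, the 5 differences were 0.74 to 0.83.

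The order of the group means in TPM was ethanol, ethanol + stress, stress and control for Hba-a1, Hba-a2 and Alas2, and ethanol + stress, ethanol, stress and control for Hbb-bs and Hbb-bt. On the log2 scale Hbb-bs was instead higher in ethanol mice, by a margin far within the spread (ethanol + stress minus ethanol -0.017, SE 0.38). Contrasts between exposed groups were not used in the choice and were tested. With limma, 0 of the 15 contrasts had an unadjusted p under 0.01, and 0 had one under 0.05. At the threshold of 0.01, 0.667% of all genes were called for ethanol + stress against ethanol, 0.705% for ethanol + stress against stress and 0.656% for ethanol against stress. These counts of all genes depend on single mice, since without ethanol + stress 1 they went from 123 to 260 and from 130 to 562 for the first 2 contrasts, and without ethanol 2 from 123 to 220 for the first. The smallest unadjusted p in limma was 0.0856, for Hbb-bt in ethanol + stress against stress mice, with a difference of 0.61 (SE 0.33) and an adjusted p of 0.887. Ethanol mice exceeded stress mice by 0.39 (SE 0.23) for Alas2 to 0.56 (SE 0.30) for Hba-a2 on the log2 scale, with adjusted p that rounded to 1.0 in limma for each gene. Ethanol + stress differed from ethanol by -0.23 (SE 0.23) for Alas2 to 0.08 (SE 0.33) for Hbb-bt. With such standard errors a difference of this size between neighboring exposed groups was within the spread between mice, and the data do not show that the exposed groups were alike. For Hbb-bs, for example, the interval of 2 SE around the difference between ethanol + stress and ethanol ran from -0.77 to 0.73.

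Within a mouse, the proportions of the globins varied far less than their levels. The sum of the 4 globin genes was 0.168% to 0.204% of a library in control mice and 0.265% to 0.579% in exposed mice. Of that sum Hbb-bs made up 48.0% to 54.0%, Hba-a2 24.6% to 28.6%, Hba-a1 14.5% to 18.5% and Hbb-bt 5.71% to 6.85%. The highest exposed mouse exceeded the lowest control mouse 4.25-fold in the globin sum, whereas the ratio of Hba-a2 to Hba-a1 varied 1.19-fold over all 12 mice, that of Hbb-bt to Hbb-bs 1.27-fold and that of alpha to beta 1.32-fold. Since all 5 genes were chosen for being higher in the same mice, ratios between them in exposed and control mice are given as a description, with no test.

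The alpha to beta ratio was 0.775 ± 0.00648 (SD, n = 3) in control mice and 0.758 ± 0.0734 (SD, n = 9) in exposed mice, with ethanol + stress 2 and ethanol + stress 3 the lowest at 0.651 and 0.667 and ethanol 3 the highest at 0.862. Its log2 difference was -0.04. For Hba-a2 to Hba-a1 the log2 difference was -0.04, and for Hbb-bt to Hbb-bs it was -0.05. Alas2 relative to the globin sum had the widest spread, 1.90-fold from ethanol + stress 2 at 0.00273 to stress 2 at 0.00518, and a log2 difference of -0.11.

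The level of each gene was carried almost entirely by its main protein-coding transcript, except for Alas2. ENSMUST00000093209.3 made up 99.3% of Hba-a1 (chr11:32283511-32284465, plus strand, 3 exons), ENSMUST00000093207.3 all of Hba-a2 (chr11:32296489-32297298, plus, 3 exons), and ENSMUST00000023934.7 99.9% of Hbb-bs (chr7:103826534-103827928, minus, 3 exons). Hbb-bt had 1 transcript, ENSMUST00000098192.3 (chr7:103812524-103813996, minus, 3 exons). The retained-intron transcript of Hba-a1, ENSMUST00000142555.1, was at 0 to 9.20 TPM, highest in ethanol + stress 1, whereas its counterpart of Hba-a2 was at 0 in all 12 libraries. These retained-intron models share 433 of 464 words of 31 bases, so that the assignment of intron reads to Hba-a1 is not secure. The retained-intron transcript of Hbb-bs, ENSMUST00000131960.2, was at 0 in all 3 control mice and in ethanol 1 and at 1.36 to 3.77 TPM in the other 8 exposed mice, but its highest value was worth 4.7 read pairs, close to the 3 read pairs that a count of 0 allows. A second coding transcript of Hbb-bs, ENSMUST00000153218.1, did not exceed 3.7 read pairs.

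Alas2 was divided between 2 coding transcripts that differ in start, end and some internal sequence. ENSMUST00000066337.12 (chrX:150547375-150570638, plus, 11 exons) held 71.3% of the summed Alas2 level over all libraries and ENSMUST00000112715.1 (chrX:150547459-150570622, plus, 11 exons) 19.0%. The remainder fell to the retained-intron ENSMUST00000134670.1 and the processed transcript ENSMUST00000142474.1, each at no more than 4.4 read pairs. The main transcript stood at 4.07, 2.43 and 4.26 TPM in control mice, at 10.3, 15.9 and 10.5 TPM in ethanol mice, at 10.9, 8.77 and 4.13 TPM in stress mice and at 8.51, 13.1 and 10.5 TPM in ethanol + stress mice. All exposed mice but stress 3 thus lay above the control mice, and stress 3 lay between them. ENSMUST00000112715.1 stood at 2.62, 2.18 and 2.61 TPM in control mice but ranged from 0 in ethanol 1 and stress 1 to 5.86 TPM in stress 3.

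The share of Alas2 in its main transcript was 50.1% ± 8.05 (SD, n = 3) in control mice and 75.0% ± 17.0 (SD, n = 9) in exposed mice, with 8 of 9 exposed mice above all control mice and stress 3 below them at 37.5%. The difference was 24.9 percentage points, and 29.6 points without stress 3. It carries no test, since the main transcript holds most of the sum on which Alas2 was chosen. The 2 transcripts share 1835 words of 31 bases, 91.4% of those of the main transcript, so that their division is an estimate from few reads. Between exposed groups none of 11 tested transcripts was called with limma at an unadjusted p under 0.01, and none at an unadjusted p under 0.05, beside 0.964% of all transcripts called for ethanol + stress against ethanol, 1.15% for ethanol + stress against stress and 1.19% for ethanol against stress.

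**Figure D2:**
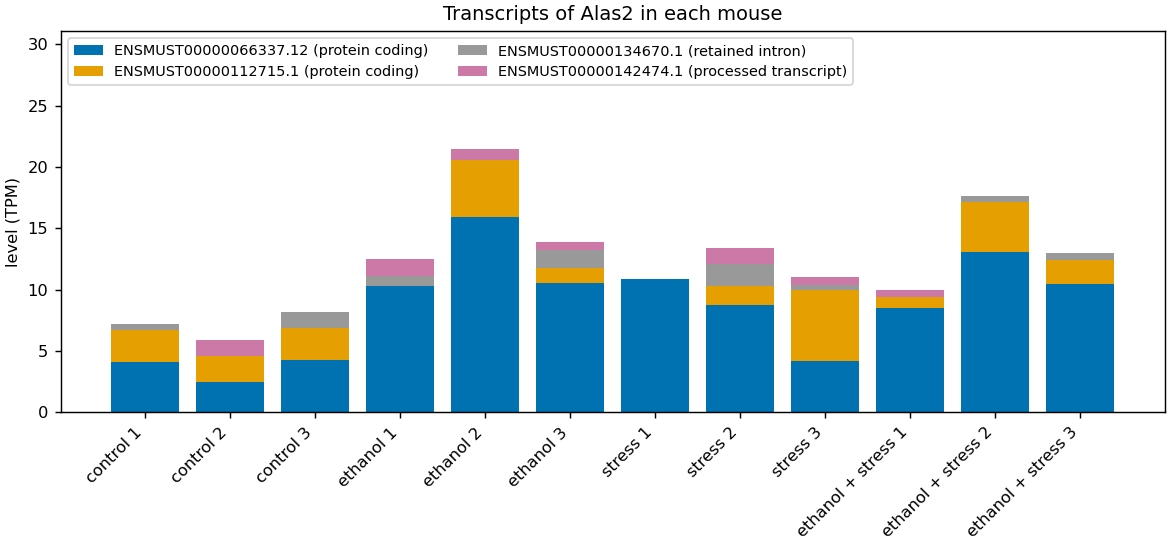
Level in TPM (linear axis from 0) of the 4 transcripts of Alas2, stacked, in each of 12 mice. The main coding transcript makes up 41.2% to 56.8% of the stack in control mice and 65.7% to 100% in exposed mice other than stress 3, where it is 37.5%.

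The genes were then related to each other within the 9 exposed mice, where the difference from control plays no part. The 6 pairs among the globin genes had Pearson r of 0.962 to 0.990 and Spearman rho of 0.90 to 0.95 on the log2 scale. For Hba-a2 with Hbb-bs, which share no near-identical copy, r was 0.986 (exact permutation p = 2.20e-05, adjusted over 10 pairs 0.00022) and rho 0.95 (exact permutation p = 0.000353, adjusted 0.00176). Without ethanol + stress 2 and ethanol 2, the mice farthest from the median, r for this pair was 0.934 over 7 mice, and for the 6 globin pairs it was 0.795 to 0.944. Hba-a1 with Hba-a2 (r = 0.990) and Hbb-bs with Hbb-bt (r = 0.986) share reads through their near-identical copies, and their r is not independent of how those reads were divided.

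Alas2 had lower values of r with the globins. Its r over the 9 exposed mice was 0.919 with Hba-a1, 0.899 with Hba-a2, 0.846 with Hbb-bs and 0.833 with Hbb-bt, and the largest exact permutation p adjusted over 10 pairs was 0.0107. Its rho was 0.683, 0.733, 0.617 and 0.517, of which only that with Hba-a2 passed (exact permutation, adjusted p = 0.0445). Without ethanol + stress 2 and ethanol 2 the r of Alas2 was 0.547, 0.492, 0.282 and 0.204 over 7 mice, so that its high r depended on those 2 mice together. Leaving out 1 exposed mouse at a time gave r of 0.738 to 0.959. The part of counting error in the lower r over the 7 mice was not tested. With TPM rescaled to a common total, r of Alas2 with Hbb-bs was 0.661 and with Hbb-bt 0.657 (exact permutation, adjusted p = 0.0534 each). Over deviations from the group means of all 12 mice, given as a description, r was 0.976 to 0.996 among the 6 globin pairs other than Hba-a1 with Hbb-bs, at 0.967, and 0.812 to 0.849 for Alas2 with each globin.

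**Figure D3:**
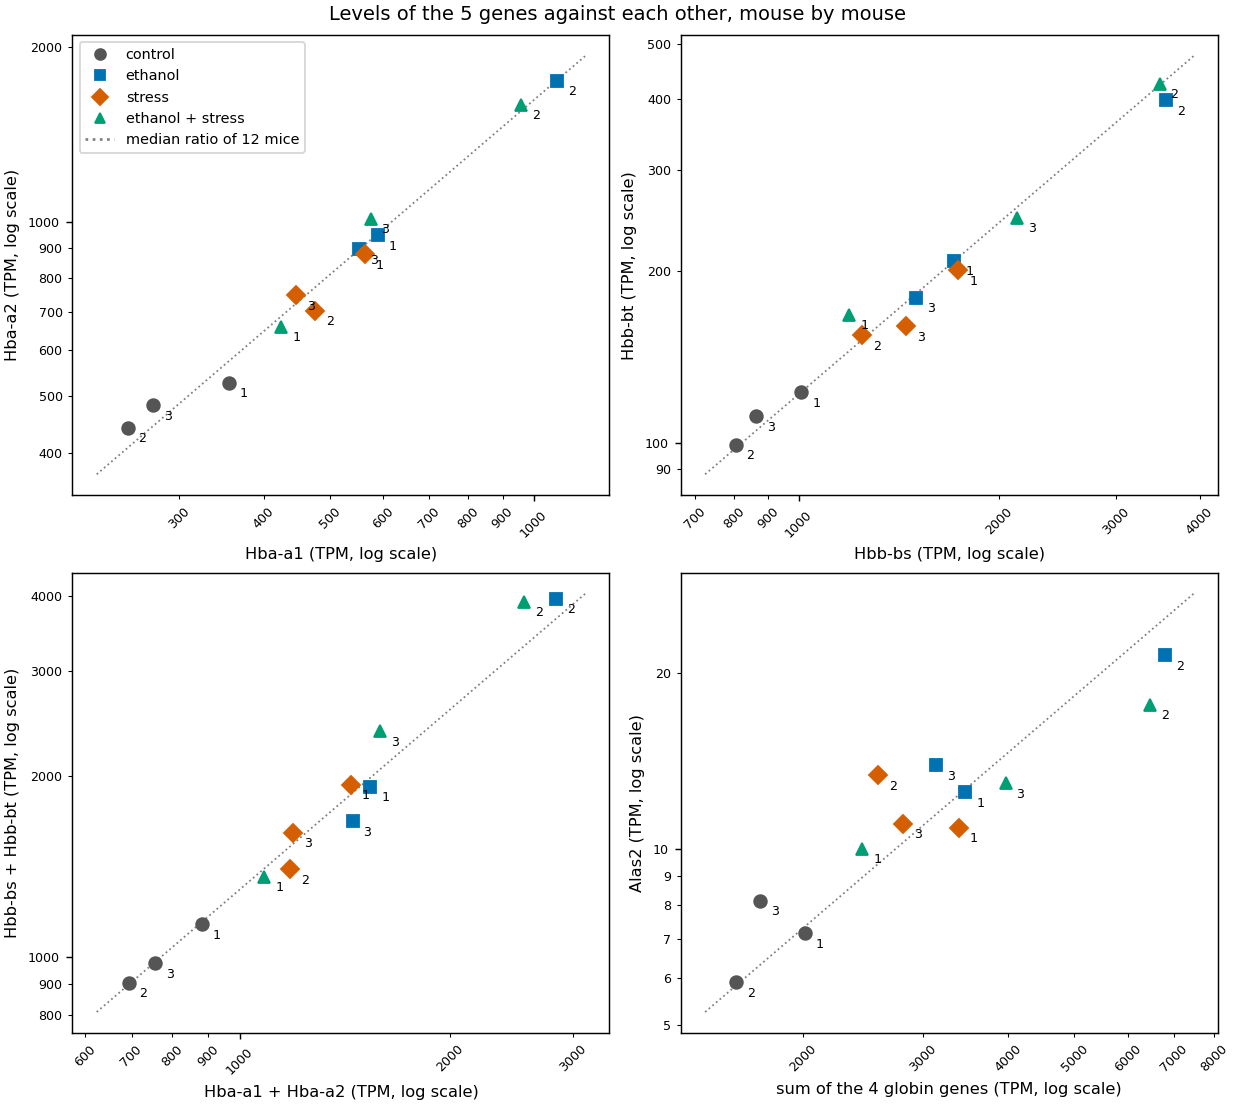
Levels in TPM (log axes) of Hba-a2 against Hba-a1, Hbb-bt against Hbb-bs, the beta sum against the alpha sum, and Alas2 against the sum of the 4 globin genes, 1 point per mouse, with the number of the mouse within its group; the dotted line is the median ratio over 12 mice. The globin panels lie close to the line over the whole range, while in the Alas2 panel ethanol 2 and ethanol + stress 2 fall below it and stress 2 above it.

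Other genes were ranked by the likeness of their pattern to the globin sum, as Pearson r of log2 levels over 12 mice among the 14354 genes that reached 1 TPM in 6 or more libraries. As these genes were ranked on r and the mice share their exposure, the values are descriptions. The 10 highest were Tmem266 (r = 0.925), Wrb (0.920), Arhgdib (0.919), Fam162a (0.919), Kansl1 (0.914), Cd52 (0.914), Mrpl4 (0.912), Pttg1ip (0.901), Fhit (0.899) and 0610009B22Rik (0.898). Deviations from the group means gave r of 0.944 for Kansl1, 0.939 for Fam162a, 0.929 for Wrb, 0.922 for 0610009B22Rik, 0.908 for Pttg1ip, 0.871 for Tmem266, 0.867 for Arhgdib, 0.857 for Mrpl4, 0.856 for Cd52 and 0.731 for Fhit. Wrb spanned 46.8 to 57.8 TPM and Fhit 3.12 to 9.31 TPM. Cd52, which encodes a small surface glycoprotein of lymphocytes, and Arhgdib, a gene abundant in blood cells, spanned 4.65 to 13.7 TPM and 8.85 to 16.6 TPM. None of the 10 is in the erythroid lists below.

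Genes of red cells other than the 5 ranged from the floor to levels of over 100 TPM. Of 46 genes in 3 erythroid lists (other erythroid globins, red cell membrane, red cell maturation), 31 passed the filter on low values (0.1 TPM in 6 or more libraries), and 0 were called higher or lower in exposed mice with limma at an unadjusted p under 0.01, while 1 had an unadjusted p under 0.05, beside 628 of all 18434 genes. The median difference of the 31 was -0.01, against 0.02 for all genes. The embryonic globins Hba-x and Hbb-bh1 and the genes Hbb-bh0 and Hbb-bh2 were at 0 in all 12 libraries, and embryonic Hbb-y did not exceed 1 read pair. The theta-type globins Hbq1a and Hbq1b were at 0.324 to 3.25 and at 0 to 3.39 TPM, with differences of -0.01 (SE 0.41) and 0.52 (SE 0.54). Of 22 measured genes of the maturation list, 9 did not exceed 10 read pairs in any library and 13 did. Among the 9 were Gata1, the master regulator of the lineage, at no more than 2 read pairs, and Klf1, the erythroid Krüppel-like factor, at no more than 7. Among the 13 were the erythropoietin receptor Epor at 29.9 to 52.9 read pairs, the transcription factor Tal1 at 15.9 to 37.8 and the mitochondrial iron carrier Slc25a37 at 103 to 187, with differences of 0.22 (SE 0.16), 0.42 (SE 0.20) and 0.24 (SE 0.16) that did not pass the test. In other members, such as Klf1 at -0.25 (SE 0.21) and the transferrin receptor 2 gene Tfr2 at -0.21 (SE 0.20), the difference was negative and did not pass either.

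Slc4a1, the band 3 anion exchanger, reached 16.9 read pairs and overlapped between control mice (0 to 0.194 TPM) and exposed mice (0.0514 to 0.674 TPM), with a difference of 0.42 (SE 0.20) over exposed mice and of 0.66 (SE 0.25) in ethanol + stress mice, where its unadjusted p was 0.0208 and its adjusted p 0.791 in limma. Tmod1, also of the membrane list, went the other way in ethanol + stress mice (-0.29, SE 0.10, unadjusted p = 0.0129 and adjusted p = 0.791 in limma). Tent5c, a poly(A) polymerase of the maturation list, was the gene with an unadjusted p under 0.05 over all exposed mice and was named after its values were seen. Its control mean was 1.69 TPM ± 0.154 (SD, n = 3) and its exposed mean 2.85 TPM ± 0.807 (SD, n = 9), with no overlap. The same held for 0.391% of all genes, and Tent5c was the 1 such gene of the 31 tested in the erythroid lists. It was not called (difference 0.58, SE 0.21, unadjusted p = 0.0184 and adjusted p = 0.979 in limma).

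The abundant genes of the erythroid lists are also known in brain cells. In the membrane list, with 12 of 16 genes tested and a median difference of -0.05, the highest were Dmtn (dematin) at 104 to 161 TPM, Add2 (beta adducin) at 99.2 to 150 TPM and Sptb (beta spectrin) at 35.7 to 57.3 TPM, with differences of -0.06 (SE 0.12), -0.01 (SE 0.12) and -0.08 (SE 0.14). In the maturation list, with 16 tested and a median of 0.05, they were Bnip3l (a mitophagy receptor) at 122 to 189 TPM, Tfrc (the transferrin receptor) at 61.9 to 95.0 TPM and Mkrn1 (a ubiquitin ligase) at 66.5 to 77.6 TPM, with differences of 0.19 (SE 0.09), -0.02 (SE 0.15) and 0.06 (SE 0.06).

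The other enzymes of heme synthesis did not pass the test in exposed mice. Of 8 genes from Alas1 to Fech, all tested, 0 were called with limma at an unadjusted p under 0.01 and 0 at an unadjusted p under 0.05, beside 628 of all 18434 genes, and their median difference was 0.01. Alas1, at 90.4 to 113 TPM the most abundant, differed by -0.03 (SE 0.07). Urod (uroporphyrinogen decarboxylase) differed by 0.11 (SE 0.11) and Fech (ferrochelatase) by 0.05 (SE 0.06). Heme breakdown and hemoglobin clearance, again 8 genes tested with 0 called in limma and 0 at an unadjusted p under 0.05, had a median of 0.05, with Hmox2 (heme oxygenase) at 0.01 (SE 0.07), the scavenger receptor Lrp1 at -0.32 (SE 0.16) and Blvra (biliverdin reductase) at 0.10 (SE 0.16). The globins that work outside red cells, Cygb (cytoglobin), Ngb (neuroglobin) and Mb (myoglobin), were at 23.1 to 33.0, 1.77 to 7.18 and 0.249 to 2.58 TPM, with 0 of 3 called in limma, 0 also at an unadjusted p under 0.05, and differences of -0.11 (SE 0.11), 0.10 (SE 0.32) and -0.27 (SE 0.41).

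**Figure D4:**
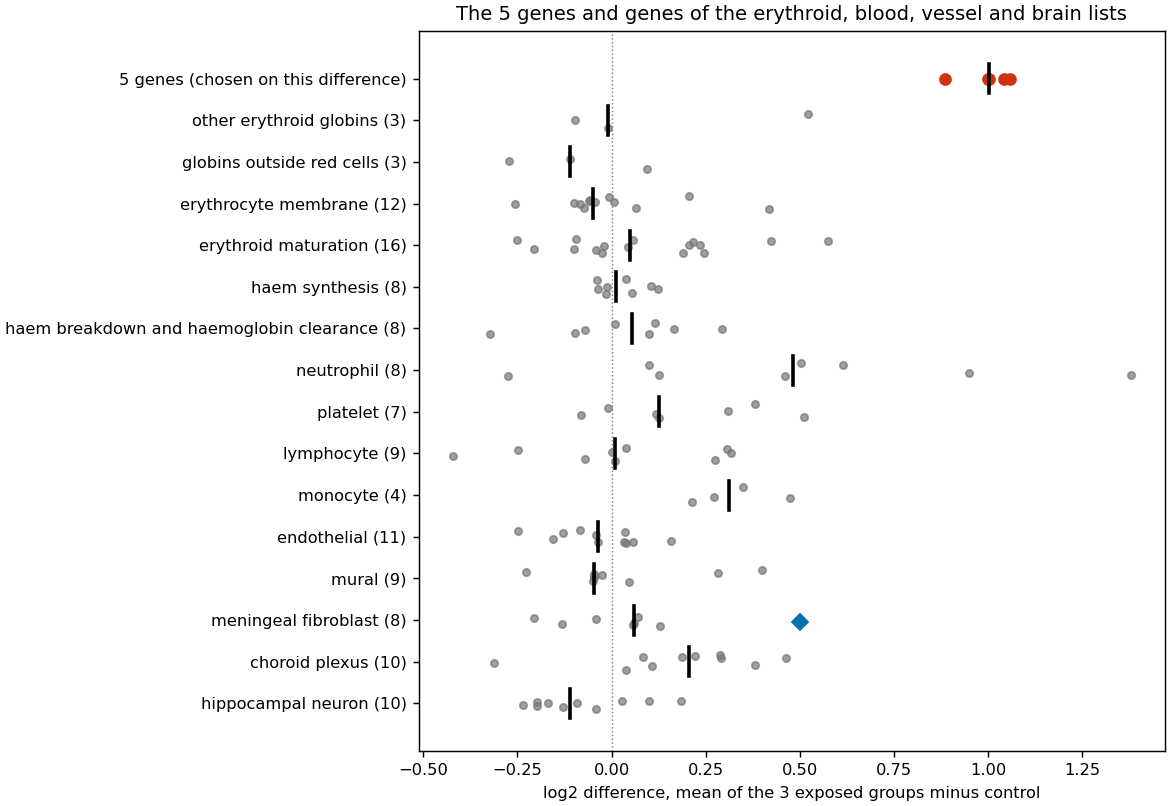
Log2(TPM + 0.5) difference between the mean of the 3 exposed groups and control for the 5 genes (red, chosen on this difference) and for each tested gene of 15 lists (gray circles; blue diamond for an unadjusted p under 0.01 in limma), with the median of each row as a black bar and the number of tested genes in brackets. The 5 genes lie between 0.88 and 1.06, the diamond is Igf2, and the neutrophil list has the highest median of the 15 lists, at 0.48.

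Markers of other blood cells were low, and those of neutrophils were highest in 2 of the 3 mice with the highest globin sums. The summed level of 11 neutrophil genes was 1.37 to 11.2 TPM in control, 4.64 to 6.55 TPM in ethanol, 3.17 to 16.4 TPM in stress and 6.68 to 37.8 TPM in ethanol + stress mice. Ethanol 2, with the highest globin sum, had 6.55 TPM, whereas ethanol + stress 2 had 37.8 and ethanol + stress 3 had 29.5 TPM. Among the 8 tested, 0 were called in limma for all exposed mice and 1 had an unadjusted p under 0.05, with a median of 0.48. S100a9, S100a8 (both subunits of calprotectin) and Lcn2 (lipocalin 2) differed by 1.38 (SE 0.66), 0.95 (SE 0.56) and 0.46 (SE 0.80). In ethanol + stress mice against control, where 0.694% of all genes were called higher, S100a8 (2.17, SE 0.69), the granule gene Ngp (1.01, SE 0.30) and the monocyte receptor Ccr2 (0.53, SE 0.16) were called, as was Igf2 (0.56, SE 0.17), each with an adjusted p of 0.791 in limma. Ngp was listed at 0 in all control mice and reached 9 read pairs. It thus passed the filter on low values only through exposed mice, where it is high, so that its call is no support. Ngp was also the neutrophil gene with an unadjusted p under 0.05 for all exposed mice. Its difference there was 0.61, and 1.71 with a pseudocount of 0.1. These 4 calls were all lost without ethanol + stress 2 and ethanol 2, and also without control 3 or without ethanol + stress 2 alone, while 1 list gene was called without control 2, 1 without ethanol + stress 3, and 9 without ethanol + stress 1, where the genes called among all 18434 also went from 179 to 763. Some of the differences stayed about as large, with Ngp at 0.99 and Ccr2 at 0.57 without ethanol + stress 2, and S100a8 at 2.20 without control 3. Of the 126 list genes tested, limma called 0 higher in ethanol mice, where 0.515% of all genes were, and 0 in stress mice, where 0.282% were. At an unadjusted p under 0.05 in either direction, limma gave 7 list genes for ethanol, beside 670 of all 18434 genes, 2 beside 442 for stress, and 11 beside 990 for the mice with both exposures.

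Platelet genes (7 of 10 tested, median 0.13), lymphocyte genes (9 of 11, median 0.01) and monocyte genes (4 of 5, median 0.31) had 0 calls in limma for all exposed mice, and 0 at an unadjusted p under 0.05, beside 628 of all 18434 genes. The summed level of the platelet list was 13.9 TPM in ethanol 2 and 14.7 TPM in ethanol + stress 2, the 2 mice with the highest globin sums, and 7.04 to 13.2 TPM in the other 10. The highest were Pf4 (platelet factor 4) at 1.56 to 6.35 TPM, Itga2b (integrin alpha 2b) and Gp1bb (a chain of the von Willebrand factor receptor) for platelets, with differences of 0.31 (SE 0.28), -0.08 (SE 0.32) and 0.38 (SE 0.22). For lymphocytes they were Ighm (the mu heavy chain) at 8.87 to 17.1 TPM, Cd4 and Ighd (the delta heavy chain), with differences of 0.28 (SE 0.14), -0.42 (SE 0.29) and 0.00 (SE 0.27). Plac8, Ccr2 and Ly6c2 of monocytes differed by 0.47 (SE 0.28), 0.27 (SE 0.13) and 0.35 (SE 0.17). The summed level of the 5 monocyte genes was 0.728 to 1.31 TPM in control, 1.66 to 2.36 TPM in ethanol, 1.13 to 2.25 TPM in stress and 1.65 to 3.57 TPM in ethanol + stress mice. The part of these blood markers in the globin levels was not tested.

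Vessel and brain markers had 0 calls in limma for exposed mice, and 0 at an unadjusted p under 0.05, again beside 628 of 18434 genes, so that these short lists are not set apart from other genes by their counts. The summed level of 11 endothelial genes was 201 to 212 TPM in control and 186 to 225 TPM in exposed mice, with a median difference of -0.04, and the tight junction gene Cldn5, Slco1a4 (an organic anion transporter) and Ly6c1 differed by 0.06 (SE 0.13), -0.04 (SE 0.14) and 0.04 (SE 0.11). Mural cell genes (9 tested, median -0.05), led by Vtn (vitronectin), Rgs5 and Acta2 (smooth muscle actin), differed by -0.05 (SE 0.08), 0.05 (SE 0.12) and -0.05 (SE 0.20). Hippocampal neuron genes (10 tested, median -0.11), led by Snap25, Neurod6 and Rbfox3, differed by 0.03 (SE 0.09), -0.04 (SE 0.13) and -0.09 (SE 0.12).

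In the meningeal list, 1 of 8 genes was called, Igf2 (insulin-like growth factor 2), at 16.8 TPM ± 2.37 (SD, n = 3) in control and 24.0 TPM ± 3.50 (SD, n = 9) in exposed mice, with no overlap, a difference of 0.50 (SE 0.14), an unadjusted p of 0.00356 and an adjusted p of 0.979 in limma, where 0.472% of all genes were called higher and 0.391% had no overlap. The call was lost in limma with TPM rescaled to a common total, where the difference was 0.42 (SE 0.16), without control 2, where it was 0.39 (SE 0.16), and without control 3, where it was 0.52 (SE 0.17). Dcn (decorin) and Slc6a13 (a GABA transporter), the other high genes of that list, differed by -0.21 (SE 0.10) and 0.07 (SE 0.13). Choroid plexus genes (10 tested, 0 called in limma and 0 at an unadjusted p under 0.05, median 0.20) summed to 88.7 TPM in ethanol 2 and to 7280 TPM in ethanol + stress 2, the 2 mice with the highest globin sums. Ttr differed by -0.31 (SE 1.29), Folr1 (folate receptor) by 0.04 (SE 0.94) and Kcnj13 (a potassium channel) by 0.29 (SE 0.87).

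The globin sum also went along with the level of short genes, the share of mitochondrial transcripts and the sum of the library. Relative to the mean over libraries, the median gene under 1000 bases (of 1684 such genes) deviated by 0.30 in ethanol 2, 0.29 in ethanol + stress 2 and 0.24 in ethanol + stress 3 on the log2 scale, and these mice had the 3 highest globin sums, at 6793, 6462 and 3965 TPM. In ethanol 3, ethanol + stress 1 and stress 2 short genes deviated by -0.25, -0.19 and -0.17, below the -0.14 to -0.03 of control mice. The globin sum of these mice was 3132, 2444 and 2580 TPM, against 1597 to 2015 TPM in control mice. Transcripts of mitochondrial genes made up 7.71%, 7.80% and 8.34% of the summed TPM in ethanol 2, ethanol + stress 2 and ethanol + stress 3, against 5.73% to 6.93% in the other 9 mice. The same libraries summed to 1173650, 1126490 and 1130570 TPM, against 889222 to 1024270 in the others. With the length trend removed, the 5 differences between exposed and control mice were 0.86 to 0.93. The part of these features in the ranking of exposed mice was not tested.

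**Figure D5:**
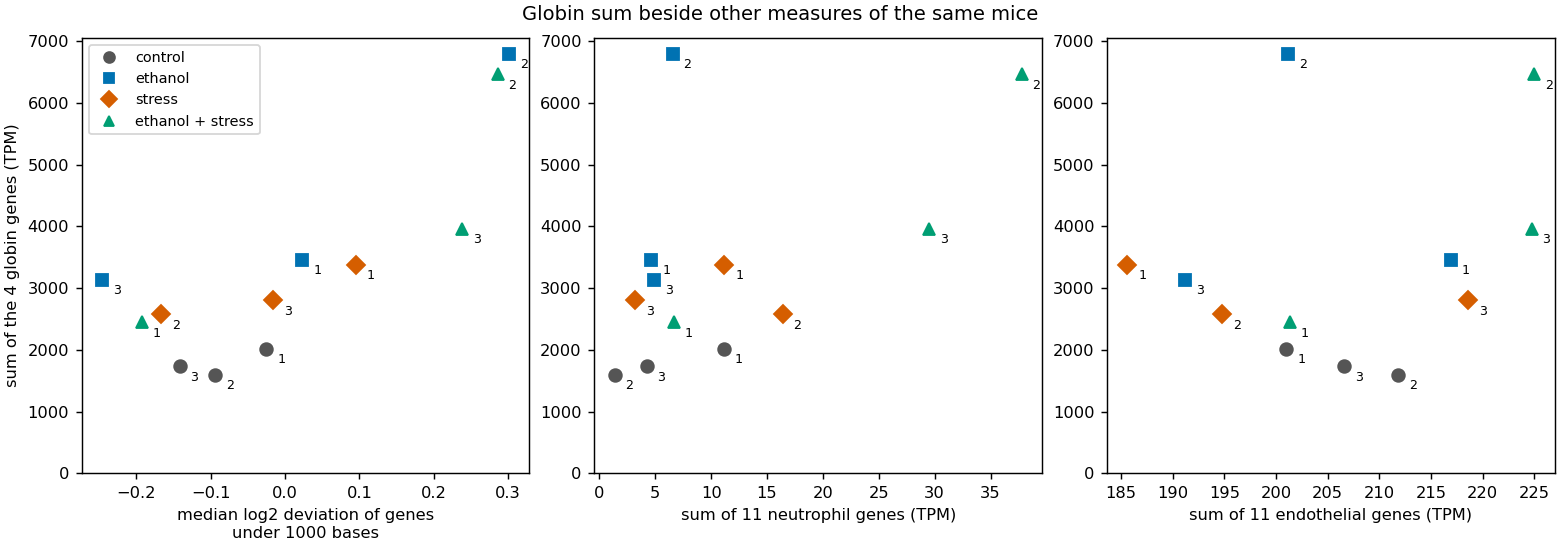
Sum of the 4 globin genes in TPM (vertical axis from 0) in each of 12 mice against the median log2 deviation of genes under 1000 bases, the summed level of 11 neutrophil genes and the summed level of 11 endothelial genes. The 3 mice with the highest short-gene deviation have the highest globin sums, ethanol 2 has few neutrophil transcripts (6.55 TPM), and the endothelial sum shows no order of control and exposed mice.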

How the data were processed

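RNA-Seq of hippocampus from 12 mice was used, grouped by the labels. The authors sequenced stranded libraries depleted of rRNA, assigned read pairs to Ensembl mouse transcripts (mm10) with kallisto and sleuth, and deposited a signal per transcript, TPM scaled between libraries; tool versions are not given in the sources used here. Of 115270 transcripts, 113580 were matched to GENCODE and summed per gene. Genes (18434) and transcripts (59852) that reached 0.1 TPM in 6 or more libraries were fitted, as log2(TPM + 0.5) in 4 groups in limma 3.58.1 (lmFit, eBayes with trend; R 4.3.3); an unadjusted p under 0.01 was called, and adjusted p are Benjamini-Hochberg values over all features. Correlations within exposed mice were tested by exact permutation, two-sided (Python 3.11.15, scipy 1.17.1). Planned tests of ratios and transcript shares against control are not given, since that contrast chose the genes. Read pairs were recovered from steps in low values (79.1% to 85.7% of low values within 0.1 of a whole read pair), and such floors cover counting error only. The model was tested on simulated data.

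The 5 genes and all lists were chosen with earlier results of these data known; 2 genes of the erythroid lists are not reported here and enter no count of list genes. Named genes were the 5 genes and their transcripts, the 3 genes of each list with the highest mean TPM and any called, and the 10 genes (the 5 left out) most like the globin sum over 12 mice among those at 1 TPM in 6 or more libraries. Defining red cell genes, other maturation genes (Epor, Tal1, Slc25a37, Tfr2), Slc4a1, Tmod1, Tent5c, Prox1 and Fibcd1 were named outside this rule, after their values were seen. Alternatives were a pseudocount of 0.1 or 1, other filters, rescaling to a common total, size factors, removal of the 20 highest transcripts, eBayes without trend, only the groups compared, a replicate block, and leaving out each mouse. Removal of the trend over length, and leaving out ethanol 2 with ethanol + stress 2, were added after seeing the data. Promoter sequences are from RefSeq (5 of 5 genes matched).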

Additional observations from a re-analysis of the deposited data

How the results depend on the processing

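The 5 differences between exposed and control mice, on which the genes were chosen, were 0.74 to 1.19 over the recalculations, and their sign is no support. The number of list genes called in exposed mice, 1, was 2 with a pseudocount of 0.1, 0 after rescaling to a common total, and 0 to 3 when each mouse was left out (0 without control 3, 2 without control 1 or ethanol + stress 2, 3 without ethanol + stress 1). For ethanol + stress mice, 4 such genes became 2 with a pseudocount of 0.1, a common total, a filter of 1 TPM or only the groups compared, 0 without both ethanol 2 and ethanol + stress 2, and 0 to 9 when each mouse was left out, while all genes called there ranged from 114 to 763 (179 with all mice). The filter of 1 TPM, which left fewer genes to test, gave 68 genes called in exposed mice in place of 120. The cause of these changes was not tested.

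Between ethanol + stress and ethanol mice, leaving out each mouse gave -0.52 to 0.11 for Hba-a1, -0.48 to 0.15 for Hba-a2, -0.39 to 0.38 for Hbb-bs and -0.27 to 0.43 for Hbb-bt, with no call. Alas2 in ethanol + stress minus stress was -0.038 to 0.36 in the same way and -0.038 without both ethanol 2 and ethanol + stress 2. For Hbb-bt that contrast was 0.26 to 0.93 when each mouse was left out. Ethanol minus stress was then 0.17 to 0.54 for Alas2, 0.21 to 0.70 for Hba-a1, 0.25 to 0.74 for Hba-a2, 0.13 to 0.75 for Hbb-bs and 0.18 to 0.76 for Hbb-bt. The log2 ratio turned to 0.028 for alpha to beta with ethanol alone, to 0.027 for Alas2 to the globin sum with stress alone (-0.18 to 0.018 when each mouse was left out), and to 0.018 for Hbb-bt to Hbb-bs with ethanol + stress alone. The main share of Alas2 differed by 20.5 to 29.6 points when each mouse was left out. After rescaling to a common total, r of Alas2 was 0.661 with Hbb-bs and 0.657 with Hbb-bt, no longer past the threshold; the other recalculated r kept their sign, and those tested kept their call.

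Replicate numbers in the labels did not pair the mice: same-numbered libraries of different groups correlated at -0.21 to 0.20 in their deviations, and 2 of 12 correlated best with their own number. A replicate block left 115 genes called in exposed mice, 2 list genes in exposed mice, 1 list gene in ethanol + stress mice and 0 of the transcripts of the 5 genes between exposed groups. Depth limits Ngp and the minor transcripts of Alas2 and Hbb-bs, and near-identical copies limit the division within the alpha and beta pairs.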
